A study of Mus musculus with 4 samples.

Results

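Gasdermins and inflammasome genes were followed through the epithelium of small-intestinal adenomas in single-cell RNA sequencing libraries of mice. The 8 genes were Gsdmc2, Gsdmc3, Gsdmc4, Gsdmd, Pycard, Casp1, Il18 and Nlrp6, out of 27514 genes listed for all libraries. They were chosen by their measured levels across 5 classes of cells gated on marker genes: adenoma, crypt, enterocyte, villus-tip and myeloid cells. Levels across these classes are therefore given as a description without a test, and tests were kept for the comparison of genotypes, which the choice did not use.

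Adenomas came from C57BL/6 mice aged 11 weeks. The ApcMin group carried ApcMin/+ with Lef1 +/+, and the VApcMinL group carried ApcMin/+ with Lef1 fl/fl and Villin-Cre, so that mice of both groups had 1 mutated allele of Apc, the brake on Wnt signalling. Villin-Cre acts in the intestinal epithelium and not in immune or stromal cells, and Lef1 is a DNA-binding partner of beta-catenin. Each group had 2 libraries, replicate 1 made with kit version 2 and replicate 2 with kit version 3 of the 10x Genomics 3′ chemistry, and each library held several pooled tumors that had not been sorted. Values for single libraries are given in the order ApcMin replicate 1, VApcMinL replicate 1, ApcMin replicate 2, VApcMinL replicate 2 throughout.

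The libraries held 44660305, 49009488, 98714025 and 128247396 UMIs (unique molecular identifiers, each standing for 1 captured transcript). Barcodes with at least 2000 UMIs and at most 20% mitochondrial UMIs were taken as cells, which left 2472, 2537, 2071 and 4217 cells. Of the 11297 cells, 3353 were gated as adenoma, 637 as crypt, 1653 as enterocyte, 1245 as villus-tip and 341 as myeloid cells. The mitochondrial limit removed 61.6% of the barcodes of ApcMin replicate 2, against 20.4% to 26.5% in the other libraries. Lef1 in adenoma cells was lower in the ApcMin than in the VApcMinL library of the kit 2 pair, against what the labels say, with 9.46, 31.0, 37.7 and 23.2 CPM (UMIs of a gene in every 1000000 UMIs of the class), so genotypes below are those on the labels. Xist, the long noncoding RNA of X inactivation, was at 0, 465, 0.376 and 129 CPM in enterocytes although all samples are labelled male, so genotype and sex cannot be told apart here. The kit 2 pair shared 9 cell barcodes and the kit 3 pair 0.

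The gates were set on these marker lists, so the levels of the lists describe the classes and do not test them. In enterocytes the summed enterocyte list reached 400.3 to 571 UMIs per 10000 against 4.96 to 11.3 in adenoma cells, and the adenoma list (Notum, Nkd1, Wif1, Axin2, Prox1, Sp5 and Apcdd1, targets of the Wnt pathway) reached 5.20 to 19.4 in adenoma cells against 0.283 to 0.342 in enterocytes. Apcdd1 was nearly absent from adenoma cells, at 0.253 to 1.38 CPM. The summed crypt list reached 7.51, 6.78, 15.2 and 14.5 UMIs per 10000 in crypt cells and 5.65, 6.25, 8.18 and 7.09 in adenoma cells, so both classes were close on this list in the kit 2 pair. Crypt cells also held 14.4 to 23.8 of the enterocyte list. Olfm4, a stem cell marker, was at 12.3, 3.26, 558 and 534 CPM in the crypt gate, so this class held few Olfm4 transcripts in the kit 2 pair. Cells within 25% above the lower limit of their gate made up 9.10% of adenoma, 17.7% of crypt, 5.08% of enterocyte, 13.4% of villus-tip and 0.880% of myeloid cells.

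Inflammasomes are protein platforms that cells assemble when they sense microbes or damage. A sensor such as Nlrp6 recruits the adaptor ASC, encoded by Pycard, which gathers the protease caspase-1, encoded by Casp1. Caspase-1 matures the cytokine interleukin-18, encoded by Il18, and cleaves gasdermin D, encoded by Gsdmd, whose released part forms pores in the cell membrane. In the gut, Nlrp6 and Il18 are known as epithelial genes of barrier defence, and the Gsdmc genes are known to be induced in epithelium by type 2 cytokines, the signals raised against worms.

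Pycard and Nlrp6 lie on chromosome 7 of the GRCm38 build at 127989708 to 127993867 and 140920902 to 140929192. Casp1 and Il18 lie on chromosome 9 at 5298517 to 5307265 and 50554827 to 50581840. Gsdmd lies on chromosome 15 at 75862327 to 75867408. Gsdmc2, Gsdmc3 and Gsdmc4 follow one another with Gsdmc in a cluster of 136.3 kb on chromosome 15, from 63775968 to 63912297, all on the minus strand.

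Gsdmc2, Gsdmc3 and Gsdmc4 are near copies, and the sequences show how alike the ends of their coding regions are. Their last 90 coding bases before the stop codon, read 5′ to 3′ on the minus strand from the GENCODE transcripts, are printed with capitals at the 6 positions where the 3 genes differ. They lie at chr15:63824881-63824970, chr15:63858274-63858363 and chr15:63891807-63891896.
Gsdmc2: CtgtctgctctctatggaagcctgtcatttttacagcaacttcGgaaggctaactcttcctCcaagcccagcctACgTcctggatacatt
Gsdmc3: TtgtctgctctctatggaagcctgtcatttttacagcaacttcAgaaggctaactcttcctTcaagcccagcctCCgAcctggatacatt
Gsdmc4: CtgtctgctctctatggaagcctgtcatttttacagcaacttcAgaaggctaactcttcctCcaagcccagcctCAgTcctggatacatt
Over the coding sequence, Gsdmc2 and Gsdmc3 were identical at 97.3% of aligned bases, and Gsdmc4 was identical to either at 94.4%. The printed bases of Gsdmc3 and Gsdmc4 lie upstream of the last 500 bases of their transcripts. In those last 500 bases, where 3′ libraries place most reads, 18.5% of the windows of 90 bases in Gsdmc2 and 18.7% of those in Gsdmc3 also occurred in another Gsdmc gene, against 0% in Gsdmc4. A read that matches several genes equally is not counted, so Gsdmc2 and Gsdmc3 are uncertain as single genes and can be undercounted relative to Gsdmc4.

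The transcription start regions of Casp1, Il18 and Nlrp6 are shown because these 3 held a match to a motif searched. RefSeq promoters matched 5 of the 8 genes by symbol, and those of Gsdmc3 and Pycard held none of the motifs searched. The 250 bases before the start are given 5′ to 3′ on the plus strand of GRCm38.p6, at chr9:5298267-5298516, chr9:50554450-50554699 and chr7:140920652-140920901, with motif matches in capitals.
Casp1: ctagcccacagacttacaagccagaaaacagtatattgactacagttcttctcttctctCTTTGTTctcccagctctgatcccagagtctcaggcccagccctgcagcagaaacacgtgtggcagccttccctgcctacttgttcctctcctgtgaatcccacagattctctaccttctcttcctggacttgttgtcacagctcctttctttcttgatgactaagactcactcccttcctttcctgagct
Il18: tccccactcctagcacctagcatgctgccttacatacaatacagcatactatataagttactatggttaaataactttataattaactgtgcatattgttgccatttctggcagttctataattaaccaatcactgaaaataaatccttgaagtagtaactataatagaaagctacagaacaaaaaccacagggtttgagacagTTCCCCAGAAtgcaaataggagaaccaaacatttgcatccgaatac
Nlrp6: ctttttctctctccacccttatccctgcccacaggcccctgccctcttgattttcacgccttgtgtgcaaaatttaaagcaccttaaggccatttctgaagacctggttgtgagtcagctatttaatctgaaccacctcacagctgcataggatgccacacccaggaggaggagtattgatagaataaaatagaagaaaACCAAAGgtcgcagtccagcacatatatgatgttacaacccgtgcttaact
Both strands were searched for the Tcf/Lef letters CTTTGNT, the STAT6 letters TTC and GAA with 4 free bases between them, the interferon-type STAT letters with 3 free bases, the Hnf4 letters CAAAGTCCA or CAAAGTTCA, and the Cdx letters TTTATNG or TTTATGA. The Tcf/Lef letters matched at base -191 of Casp1 and base -51 of Nlrp6 and occurred in 16.0% of 32851 promoters, and the STAT6 letters matched at base -46 of Il18 and occurred in 5.85%. The interferon-type STAT, Hnf4 and Cdx letters, present in 7.02%, 0.715% and 12.7% of promoters, had no match in these 3 windows. The Tcf/Lef and Hnf4 letters share the run CAAAG on opposite strands.

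All 8 genes had a higher mean level in enterocytes than in adenoma cells, so that adenoma cells were below enterocytes at each step from sensor to pore. Levels in CPM are counts of 3′ ends and are not divided by transcript length, so they are compared between cells for each gene and not between genes. With at least a 2-fold difference required in each of the 4 libraries, 7 of the 8 genes were lower in adenoma cells than in enterocytes, where 7.56% of 14934 genes met the same rule, and the exception was Gsdmc3. Against crypt cells, 4 of the 8 were lower in adenoma cells (Gsdmc4, Pycard, Casp1 and Nlrp6), where 2.11% of 14736 genes met the rule. As these levels chose the genes, nothing is read from those shares.

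**Figure D1:**
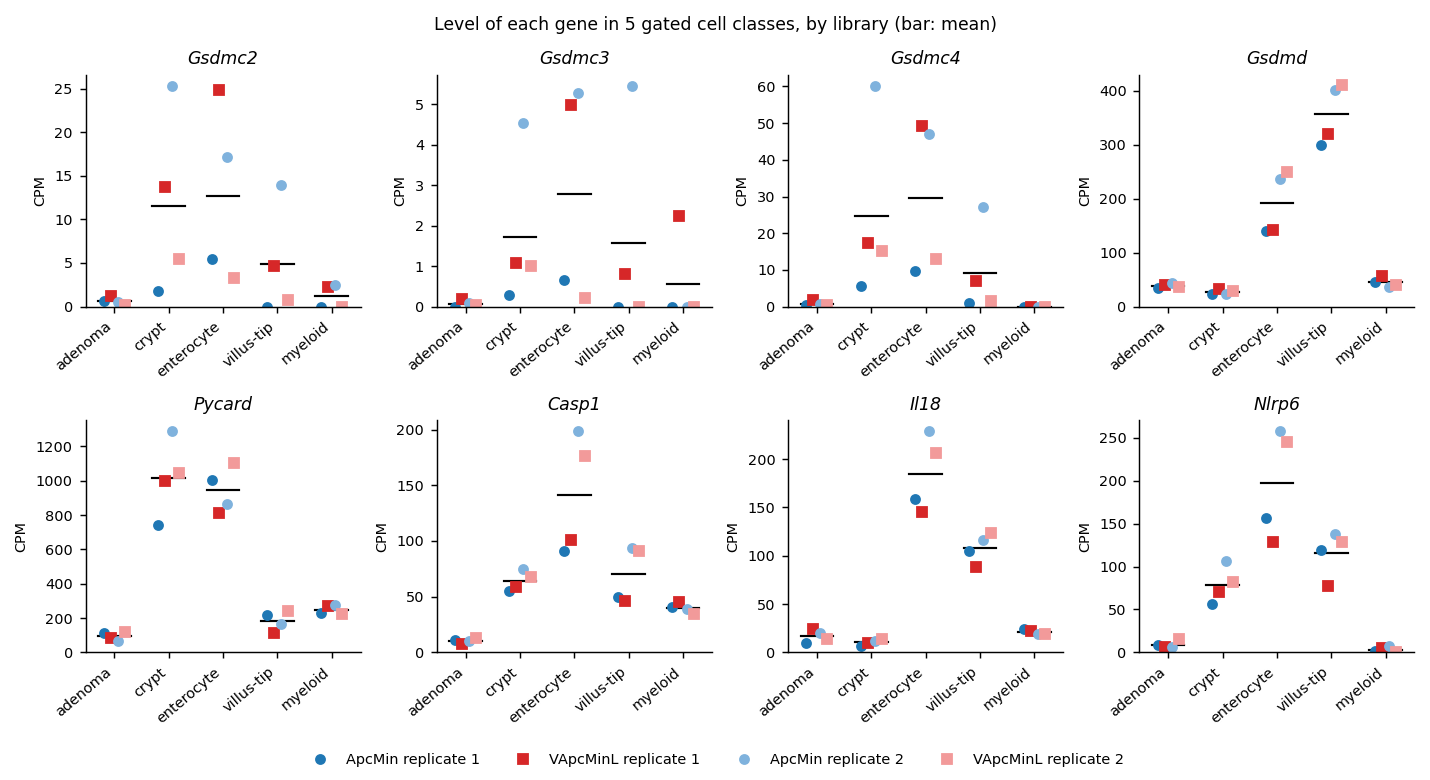
Level of each gene in CPM (vertical axis, linear, from 0) in the 5 gated classes (horizontal axis). Each point is 1 library and each bar the mean of the 4. Pycard was high in crypt cells and enterocytes, Gsdmd was highest in villus-tip cells, and Casp1, Il18 and Nlrp6 had their highest means in enterocytes.

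The sensor Nlrp6 was at 156, 129, 258 and 245 CPM in enterocytes, a mean of 197 ± 64.0 (SD, n = 4 libraries, as for all means of levels below). In adenoma cells it was at 8.70, 6.36, 5.83 and 15.2 CPM, so the classes were far apart, by 15.2-fold to 37.9-fold within a library after adding 1 CPM. Villus-tip cells had 77.2 to 138 and crypt cells 55.8 to 107 CPM, and these neighbouring classes overlapped in the order of levels. Myeloid cells had 0 to 7.30, close to T cells (0 to 6.76) and fibroblasts (0 to 5.41). Nlrp6 transcripts were thus mainly found in epithelial cells outside the adenoma class, with goblet cells at 26.9 to 51.7 and Paneth cells at 11.5 to 66.0 CPM.

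Pycard, the adaptor, was the member with the most UMIs. It reached 740, 999, 1291 and 1048 CPM in crypt cells and 1004, 814, 864 and 1105 in enterocytes, and these ranges overlapped. Adenoma cells had 111, 82.0, 65.1 and 120 CPM, a mean of 94.7 ± 25.6, below the crypt mean of 1019 ± 226. Within libraries the crypt to adenoma fold ran from 6.60 to 19.5. Villus-tip cells had 114 to 241 CPM and overlapped with both adenoma cells and myeloid cells (225 to 275). B and plasma cells, with 481 to 870 CPM, and tuft cells, with 89.9 to 802, also held Pycard.

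Casp1, the protease, was at 90.6, 100.5, 199 and 176 CPM in enterocytes and at 10.9, 7.79, 10.3 and 12.8 in adenoma cells. The fold between them was 7.71 to 17.7 within a library. Crypt cells had 54.9 to 75.2 and villus-tip cells 45.8 to 93.7 CPM, which overlapped, while myeloid cells had 34.9 to 44.9, above adenoma cells in each library. Casp1 was the 1 gene of the 8 at least 2-fold higher in myeloid than in adenoma cells in each library, where 8.93% of 14909 genes met that rule.

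Il18, the cytokine substrate, separated enterocytes from crypt cells. It was at 158, 145, 229 and 206 CPM in enterocytes and 7.05, 10.1, 12.0 and 13.4 in crypt cells, a 13.1-fold to 19.8-fold difference within a library. Adenoma cells had 9.20, 24.4, 19.9 and 13.8 CPM, which overlapped with crypt cells and with myeloid cells (19.4 to 23.9). Villus-tip cells had 88.3 to 123, below enterocytes and above the other classes in the 4 libraries.

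Gsdmd, the pore former cut by caspase-1, had another order. Villus-tip cells had 299, 320, 402 and 411 CPM, above enterocytes at 140, 142, 237 and 249, with no overlap between the classes. Adenoma cells had 33.5 to 43.0, crypt cells 23.3 to 31.9 and myeloid cells 36.5 to 56.1 CPM. Gsdmd and Il18 were the members at least 2-fold higher in enterocytes than in crypt cells in each library, where 6.72% of 12740 genes met the rule.

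Gsdmc4, a pore-forming protein gene of the Gsdmc cluster, was at 9.71, 49.2, 46.9 and 12.9 CPM in enterocytes and 5.58, 17.4, 60.2 and 15.2 in crypt cells, so these classes overlapped and the libraries of 1 class were far apart. Villus-tip cells had 0.973, 7.06, 27.0 and 1.55 CPM, adenoma cells 0.338, 1.70, 0.614 and 0.373, and myeloid cells 0 in the 4 libraries. Gsdmc2 followed at 5.5, 24.9, 17.2 and 3.28 CPM in enterocytes and 0.591, 1.16, 0.537 and 0.170 in adenoma cells. Gsdmc3 was close to the limit of detection, with 0.647, 4.97, 5.27 and 0.212 CPM in enterocytes and 0 to 0.179 in adenoma cells. In each library the 3 genes were also found in the epithelial cells that no class gate took, where their summed level was 25.8, 77.1, 147 and 24.0 CPM.

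Free RNA in the droplets was read from barcodes with 10 to 100 UMIs, which hold RNA of broken cells beside free RNA. The level of all 8 genes in adenoma cells was below the level in these barcodes in each of the 4 libraries, and for none of the 8 was this so in enterocytes or villus-tip cells in each library. In crypt cells it was so for Gsdmd and Il18, and in myeloid cells for Gsdmc4, Gsdmd and Nlrp6. In 3 of the 4 libraries it was so for Gsdmc2, Gsdmc3, Gsdmc4 and Pycard in villus-tip cells and for Gsdmc3 in crypt cells. The same held in 3 of the 4 libraries for Gsdmc2, Gsdmc3 and Il18 in myeloid cells. Pycard, for example, was at 388, 430, 170 and 135 CPM in the free RNA. With each cell thinned to 1000 UMIs, a UMI of Nlrp6 was found in 16.4%, 13.2%, 23.2% and 23.3% of enterocytes and in 0.592%, 0.752%, 0% and 1.62% of adenoma cells, against 76.3%, 75.5%, 90.5% and 90.6% and 12.4%, 8.84%, 13.8% and 18.3% before thinning. Thinned fibroblasts, which should lack Nlrp6, had a UMI in 0 of 106 cells in ApcMin replicate 1, which allows a share of up to 2.83%, with median depths of fibroblasts at 5903 to 13583 UMIs and of adenoma cells at 17774 to 33140. In VApcMinL replicate 2, Nlrp6 was at 15.2 CPM in adenoma cells and 27.9 in the free RNA, and at 0 in myeloid, T, B and plasma, fibroblast and endothelial cells, which hold fewer UMIs. This contrast was not seen in each library. In ApcMin replicate 2, adenoma cells had 5.83 CPM, myeloid cells 7.30 and fibroblasts 5.41. In VApcMinL replicate 1, adenoma cells had 6.36 and T cells 6.76, and in ApcMin replicate 1 these had 8.70 and 5.67. A UMI of Pycard was found in 6.31% to 9.14% of thinned adenoma cells and in 0% to 7.55% of thinned fibroblasts, and in 42.3% to 56.5% of thinned enterocytes.

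The order of these genes along the villus-tip list (Ada, Nt5e, Slc28a2 and Apoa4, genes of the upper villus) was described within crypt, enterocyte and villus-tip cells together. The summed list was cut into 6 bins. Most of the sum was Apoa4, at 12120 to 19350 CPM in villus-tip cells. Ada was at 766 to 1924, Slc28a2 at 195 to 297 and Nt5e at 133 to 170 CPM there. The bins and the villus-tip gate thus mainly rank cells by Apoa4. The bins held 362 to 788 cells, with 32 the fewest from 1 library. The gates of these classes rest on the same list, so the bins are a description. Pycard was at 903 to 1416 CPM in the lowest bin and at 54.2 to 171 in the highest, and Gsdmd went the other way, from 37.1 to 65.8 up to 317 to 469. The log2 ratio of the highest over the lowest bin ranged from -4.68 to -2.90 for Pycard and from 2.73 to 3.06 for Gsdmd over the 4 libraries.

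Casp1, Il18 and Nlrp6 were highest between the ends of this axis. Il18 had its highest level in bin 3 or 4 in each library, with means of 53.5 ± 13.9 CPM in bin 1, 214 ± 60.0 in bin 3 and 58.8 ± 12.4 in bin 6. Nlrp6 had its highest level in bins 2 to 4, and Casp1 in bin 2 or 3. The Gsdmc genes were highest in the first 3 bins, as Gsdmc4 had 32.9 ± 28.1 CPM in bin 1 and 4.68 ± 5.65 in bin 6. The bin of highest Pycard level was thus lower on the villus-tip list than the bin of highest Il18 level, and the latter lower than that of highest Gsdmd level, in the 4 libraries. Position in the tissue was not measured.

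**Figure D2:**
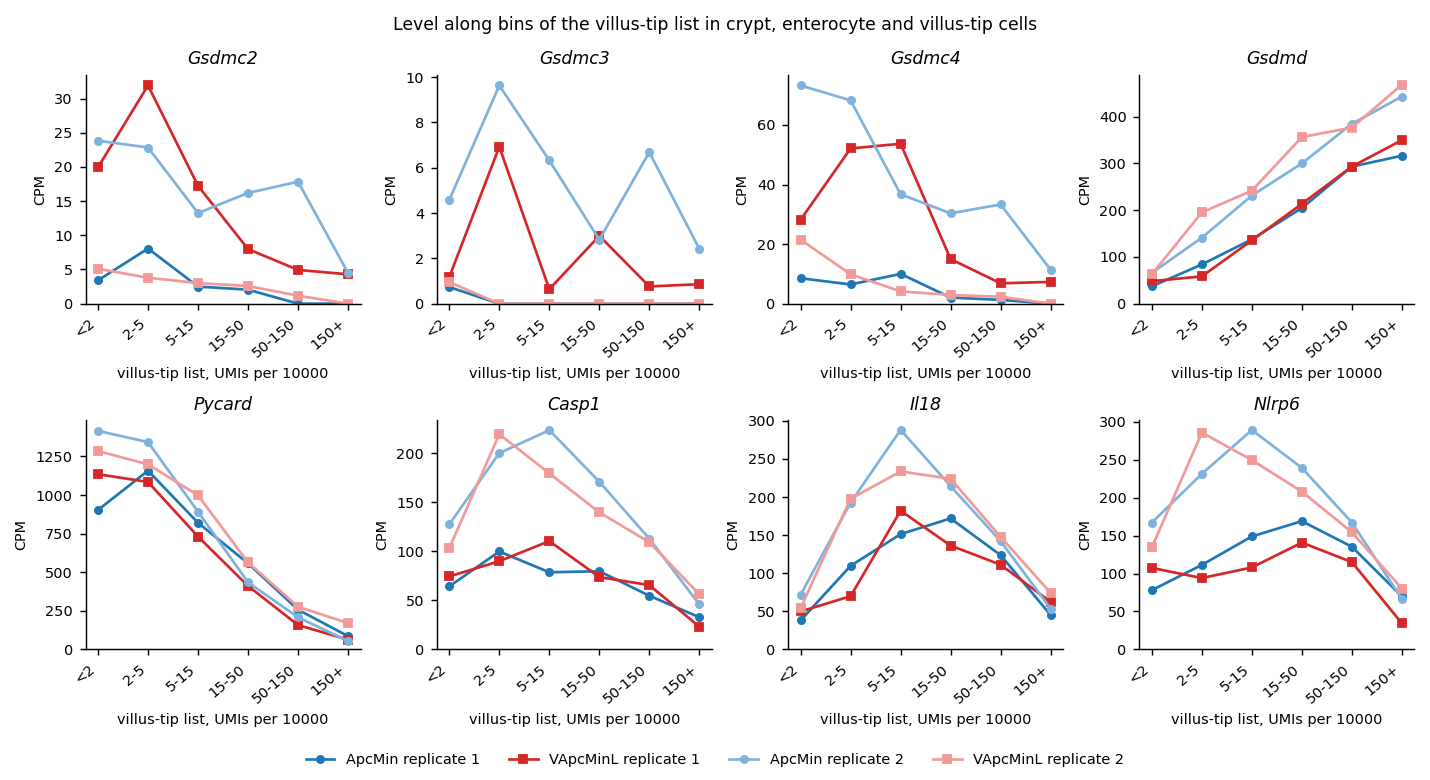
Level of each gene in CPM (vertical axis, linear, from 0) by bin of the villus-tip list in UMIs per 10000 (horizontal axis, lowest bin on the left), with 1 line per library. Pycard lay at 903 to 1416 in the first bin and 54.2 to 171 in the last, Gsdmd was highest in the last, and Casp1, Il18 and Nlrp6 were highest in between.

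The comparison of villus-tip cells with enterocytes cuts the same cells on the same list as the bins, so it is not separate from them. Pycard was lower in villus-tip cells by 4.56-fold to 7.10-fold and was the 1 of 8 genes at least 2-fold lower in each library, where 2.84% of 12197 genes met the rule. Myeloid cells were at least 2-fold lower than enterocytes in each library for 7 of the 8, the exception being Gsdmc3, where 14.3% of 12466 genes met the rule.

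Detection of the Gsdmc genes was uneven between cells of the same class. A UMI of Gsdmc2, Gsdmc3 or Gsdmc4 was found in 10.3%, 26.2%, 24.0% and 13.2% of enterocytes, and the tenth of enterocytes with the most such UMIs held 79.0% to 100% of them. Where few cells hold a UMI, that share is high in any case. Such a UMI was held by 24 of 232 enterocytes in ApcMin replicate 1, where the share was 100%, and by 59 of 446 in VApcMinL replicate 2. The share expected from depth and rarity was not computed. Up to 76 such UMIs were found in 1 enterocyte. Among enterocytes with a UMI of Gsdmc4, 36.8%, 47.6%, 50.8% and 27.3% also had one of Gsdmc2, against 2.35%, 3.92%, 3.1% and 1.02% of those without. Cells positive for Gsdmc4 were deeper, with a median of 36520 against 27180 UMIs in ApcMin replicate 2. These cells share a library and are not replicates, so no test was made, and the part of depth in the overlap was not tested.

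The genes most like each member were taken over 20 points (4 libraries by 5 classes, which share libraries and depth) by Pearson's r of log2 levels among 7965 genes. Nlrp6 was most like Plcb3 and Isx (r = 0.985 for both), and Gsdmd most like Apoa1, a lipid carrier of enterocytes (r = 0.984). Apoa1 is on the marker list that gated enterocytes, so its levels across the classes follow in part from the gates. Il18 was most like Maob (r = 0.957), Casp1 most like Arhgap27os2 (r = 0.955) and Pycard most like Gstp3 (r = 0.887). Gsdmc2 was most like Gsdmc4 (r = 0.961). Among the members, Gsdmd and Il18 reached r = 0.92, while Gsdmd and Pycard reached r = -0.03.

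Other genes of inflammasomes and pyroptosis were taken from a list of 42, and a list of 10 covered the epithelial answer to type 2 cytokines. Of 14 sensors, 7 were higher in enterocytes than in adenoma cells without overlap of the libraries. This is a description of levels. At least 20 UMIs in both classes together were held by 10 of the 14 sensors, the 7 among them, and 14.8% of the 14934 genes with that many met the same rule. The Naip genes encode receptors of bacterial flagellin and needle proteins that signal through Nlrc4. Naip1 was at 76.0 ± 7.38 CPM in enterocytes and 3.16 ± 0.755 in adenoma cells, Naip2 at 34.3 ± 12.8 and 6.99 ± 2.41, Naip5 at 36.6 ± 11.1 and 3.72 ± 2.60, and Naip6 at 27.3 ± 14.6 and 3.44 ± 1.84. Nlrc4 itself was at 33.1 ± 1.77 and 21.2 ± 3.79 CPM.

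Casp8, the apical caspase of death receptors, was at 93.2 ± 12.4 CPM in enterocytes and 59.4 ± 10.5 in adenoma cells. Txnip, an inhibitor of thioredoxin, was at 283 ± 37.5 in enterocytes and 76.2 ± 23.3 in adenoma cells, and Panx1, a membrane channel, at 28.0 ± 5.04 and 14.2 ± 1.44. Nek7, a partner of Nlrp3, went the other way, with 3.97 ± 2.53 in enterocytes and 20.8 ± 6.13 CPM in adenoma cells, as did Ninj1, which ruptures membranes late in cell death, with 13.9 ± 5.07 and 45.4 ± 11.7.

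Of the cytokine genes, Il33, an alarm signal of epithelium, was at 47.9 ± 25.7 CPM in enterocytes and 72.8 ± 36.0 in adenoma cells, and Il1rn, the antagonist of interleukin-1, at 23.3 ± 28.4 and 18.0 ± 7.07. The sensor Nlrp3 and the cytokine Il1b, singled out after their values were seen, were myeloid. Nlrp3 was at 57.6 ± 39.9 in myeloid cells against 0.0858 ± 0.172 in enterocytes, and Il1b at 2099 ± 784 against 1.35 ± 1.45 CPM. Of the type 2 list, the receptor chains Il4ra and Il13ra1 and the factor Stat6 that they activate were at 31.2 ± 13.5, 88.5 ± 19.99 and 41.0 ± 4.71 CPM in enterocytes and 21.0 ± 7.75, 19.8 ± 3.98 and 23.8 ± 4.68 in adenoma cells. Fcgbp, a mucus protein gene, was at 22.9 ± 7.35 and 27.4 ± 5.32. Among the 5 other gasdermins none passed 20 CPM in enterocytes or adenoma cells, and the highest, Gsdma, was at 17.2 ± 8.21 in adenoma cells and 0.473 ± 0.575 in enterocytes.

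Genotypes were compared within each class by edgeR's quasi-likelihood test on UMIs summed per library, with the kit as a block and Benjamini-Hochberg adjustment over all genes tested. The question was whether the genotype on the labels went with a change of these genes. Lef1 transcripts were found in adenoma cells of both VApcMinL libraries, at 31.0 and 23.2 CPM, so its loss was not shown by these counts. None of the 8 was called at an adjusted p of 0.05 in any class, in 31 tests of members that passed the filter on low counts, with a smallest unadjusted p of 0.108. The members with enough UMIs to be tested were 5 in adenoma, 7 in crypt, 8 in enterocyte, 7 in villus-tip and 4 in myeloid cells. Over all genes, 0% were called in adenoma cells (31 of 12794 genes at an unadjusted p under 0.05), 0.00947% in crypt cells, 0.00945% in enterocytes, 0.0106% in villus-tip cells and 0.0182% in myeloid cells, and the 1 call in each of the last 4 classes was Xist. The p-values measure the spread between libraries of pooled tumors, of which there were 2 per group.

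The intervals concern the change between the labelled groups and do not bound an effect of Lef1 loss, as genotype and sex cannot be told apart. With 2 libraries per group, the spread behind them is borrowed in part from other genes. In enterocytes the log2 change of the 5 genes outside the Gsdmc cluster lay between -0.21 and 0.01, and their 95% intervals reached no further than -0.66 and 0.64. Pycard had a fitted log2 change of -0.01 (SE 0.26, 95% interval -0.66 to 0.64) and Gsdmd one of 0.01 (SE 0.18). In adenoma cells the intervals were wider and reached -1.28 and 2.22, with Nlrp6 at 0.47 (SE 0.61) and Pycard at 0.21 (SE 0.44). The smallest p was that of Gsdmd in crypt cells, at 23.8 and 23.3 CPM in the libraries labelled ApcMin and 31.9 and 29.6 in those labelled VApcMinL, a log2 change of 0.35 (SE 0.19, adjusted p = 1.00 by edgeR's quasi-likelihood test). These levels of Gsdmd were below those of the free RNA, at 80.3 and 78.3 CPM in the ApcMin and 110.2 and 58.1 in the VApcMinL libraries.

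**Figure D3:**
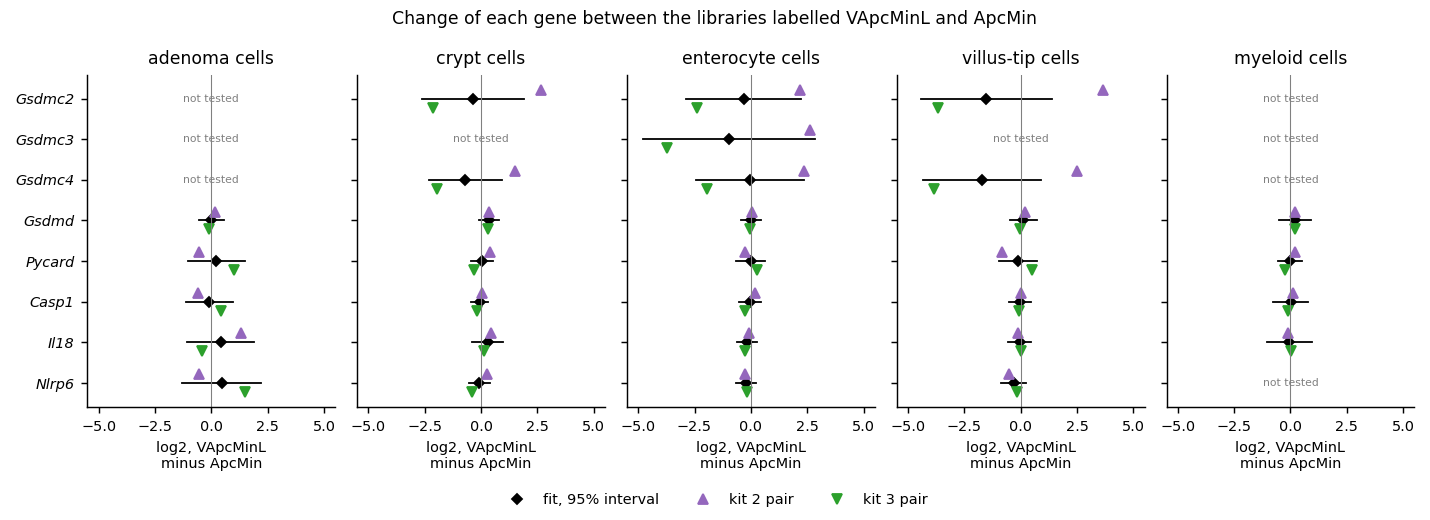
Log2 change from ApcMin to VApcMinL (horizontal axis) of each gene (rows) in each class (panels). Diamonds and lines give the fit and its 95% interval, and triangles the difference within the kit 2 pair and the kit 3 pair. Where tested, the Gsdmc genes lie on opposite sides of 0 in the kit pairs in crypt, enterocyte and villus-tip cells, and the 5 other genes stay near 0 in enterocytes.

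The kit pairs went in opposite directions in 24 of the 31 tests, and most widely in the Gsdmc genes. The share over all genes was not counted and the 31 tests share the same libraries, so nothing is read from this count. In enterocytes, Gsdmc4 in the VApcMinL library stood 2.34 (log2) from its ApcMin partner in the kit 2 pair and -1.94 in the kit 3 pair. The same differences were 2.16 and -2.40 for Gsdmc2, and 2.61 and -3.74 for Gsdmc3. The fit gave -0.04 (SE 0.98) for Gsdmc4 in enterocytes and -1.71 (SE 1.11) in villus-tip cells. Both libraries high in Gsdmc4, labelled VApcMinL replicate 1 and ApcMin replicate 2, were thus of different genotype labels, and were the same in crypt, enterocyte and villus-tip cells. They also had the higher level within their kit pair in adenoma cells, where all levels were at most 1.70 CPM.

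Other measures, chosen after their values were seen, were higher in the same libraries. Lef1 in adenoma cells was higher in VApcMinL replicate 1 and in ApcMin replicate 2 within their kit pairs, as was the summed adenoma list in adenoma cells at 5.20, 19.4, 17.3 and 6.21 UMIs per 10000. The adenoma list is also the list that gated these cells. Goblet cells made up 3.38%, 5.89%, 6.37% and 3.47% of epithelial cells, with exact 95% binomial intervals of 2.53% to 4.41%, 4.90% to 7.02%, 5.30% to 7.59% and 2.91% to 4.09%, which cover counting error only. Tuft cells, the epithelial cells that start type 2 immunity, made up 0.455%, 0.403%, 0.599% and 0.647%, with intervals that overlapped.

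Genes of the type 2 answer followed in part. Clca1, a secreted goblet cell protein, was at 586, 2005, 6322 and 1403 CPM in goblet cells, and Ang4, an antimicrobial ribonuclease, at 79.1, 611, 860 and 25.3. Clca1 is on the marker list that gated goblet cells and Ang4 on that of Paneth cells, so Clca1 and the goblet share are not separate measures. Il33 in adenoma cells was at 44.2, 117, 87.6 and 42.7. The kit 3 pair did not share this order for Il33 in crypt cells (26.7, 32.2, 13.4 and 25.6) or villus-tip cells (92.5, 136.5, 86.4 and 112.8). In enterocytes Il13ra1 shared it, at 88.0, 110.8, 92.9 and 62.4, and Stat6 did not, at 45.3, 34.5, 43.3 and 40.7. Retnlb, another goblet gene of worm infection, was at 902, 491, 76.4 and 115 CPM in goblet cells and did not share this order. In tuft cells, of which there were 7, 8, 11 and 25, the summed level of the 3 Gsdmc genes was 0, 232, 127 and 2.30 CPM. The summed Gsdmc level in enterocytes was 15.9, 79.1, 69.4 and 16.4. The libraries are 4 and no test was made of these measures together, so the part of goblet share, Wnt markers or type 2 signals in the Gsdmc levels was not tested.

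**Figure D4:**
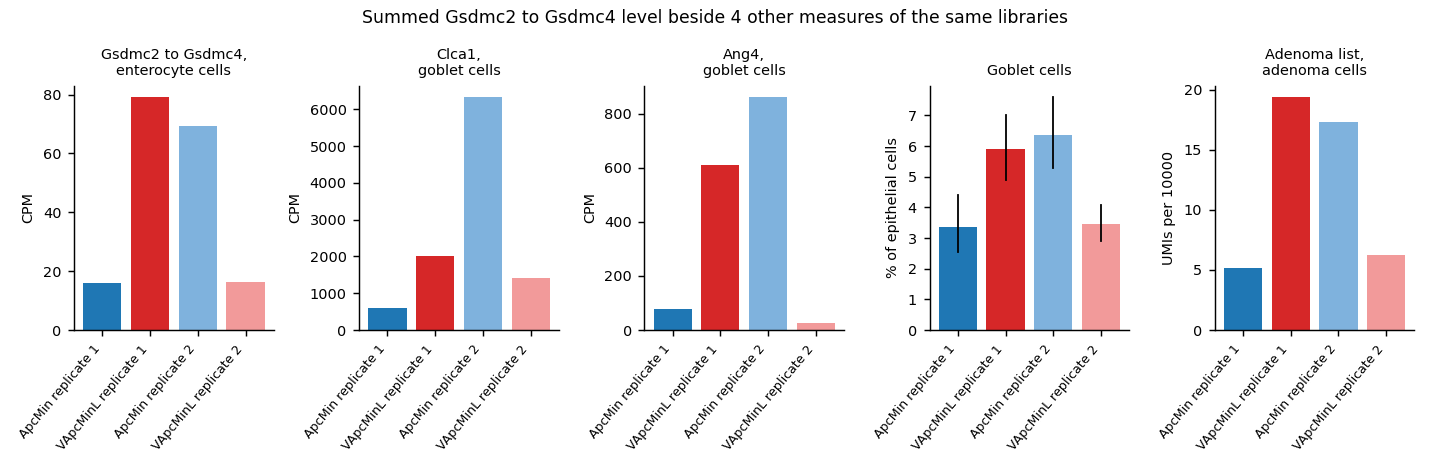
Summed level of Gsdmc2, Gsdmc3 and Gsdmc4 in enterocytes beside Clca1 and Ang4 in goblet cells (CPM), the share of goblet cells among epithelial cells with exact 95% binomial intervals (lines), and the summed adenoma list in adenoma cells (UMIs per 10000), with 1 bar per library from 0. In these panels VApcMinL replicate 1 is above ApcMin replicate 1 and ApcMin replicate 2 above VApcMinL replicate 2. Clca1 is on the list that gated goblet cells, and the adenoma list gated adenoma cells.

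In enterocytes, both kit 3 libraries were above both kit 2 libraries for Casp1, Il18, Nlrp6 and Gsdmd, as with Casp1 at 199 and 176 against 90.6 and 100.5 CPM. The share of all genes with this order was not counted, so nothing is read from it about these genes. Kit, replicate and the release of the counting software go together and cannot be told apart.

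A change that differed between enterocytes and adenoma cells was tested as an interaction over the 8 sums with the library as a block. None of the 8 genes was called, with a smallest unadjusted p of 0.137 for Gsdmc4, and 0% of 13142 genes were called (273 at an unadjusted p under 0.05, and 0 called by DESeq2). The difference of log2 changes was -0.22 for Pycard (SE 0.36), -0.67 for Nlrp6 (SE 0.52), -0.59 for Il18 (SE 0.46), 0.03 for Casp1 (SE 0.50) and 0.01 for Gsdmd (SE 0.43).

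Of the 52 listed genes, none was called between genotypes in the 5 classes, in 139 tests, of which 8 had an unadjusted p under 0.05. Over all genes tested in the 5 classes, 1.85% of 48851 tests had such a p (905 tests). Il1rn in enterocytes had the smallest, with 14.9, 65.4, 3.44 and 9.52 CPM, a log2 change of 1.77 (SE 0.27) and an adjusted p of 0.999 by edgeR. Its fitted log2 change in crypt cells was 1.05 (SE 0.34, adjusted p = 1.00 by edgeR). Il33 was at 26.7, 32.2, 13.4 and 25.6 CPM in crypt cells, a log2 change of 0.57 (SE 0.24), and its fitted value was 0.51 (SE 0.22) in villus-tip cells. The fitted log2 change was 0.86 (SE 0.23) for Fcgbp in villus-tip cells and 1.34 (SE 0.41) for Il1a, an alarm cytokine, in myeloid cells.

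The sensors Zbp1, which binds nucleic acids in the Z form, and Naip6 had the only negative changes among these 8. Zbp1 was at 21.7, 13.2, 21.7 and 11.0 CPM in enterocytes, a log2 change of -0.90 (SE 0.23, adjusted p = 0.999 by edgeR), and Naip6 had a fitted value of -0.72 (SE 0.24) in villus-tip cells. The median log2 change of the sensors tested ran from -0.41 in villus-tip to 0.18 in myeloid cells, with -0.26 in enterocytes, and that of the type 2 genes from -0.17 in enterocytes to 0.30 in villus-tip cells, beside -0.01 to 0.01 over all genes tested. In enterocytes the medians of the 6 lists ran from -0.34 (caspases, 4 genes tested) to 0.10 (the other gasdermins, 1 gene tested). For the interaction, Gsdma (3.56, SE 0.86), Il1rn (1.70, SE 0.65) and Nek7 (1.04, SE 0.44) had an unadjusted p under 0.05 and an adjusted p of 1.00 in edgeR.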

How the data were processed

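Small-intestinal adenomas were profiled by 10x Genomics 3′ single-cell RNA sequencing in 4 libraries, 2 per genotype. The authors deposited UMI counts per gene and barcode, not normalized, made with Cell Ranger 2.1.1 on GRCm38 (mm10) per the sources used here, and used Seurat 3.1.1 downstream. A later software release is named in the headers for kit 3. The gene tables held 27998 entries in the kit 2 and 31053 in the kit 3 libraries, and the 27514 genes shared by all were analysed.

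Barcodes with at least 2000 UMIs and at most 20% mitochondrial UMIs were kept. Cells were gated on summed marker lists per 10000 UMIs, at lower limits of 2 for adenoma, 4 for crypt, 100 for enterocyte, 50 for villus-tip and 15 for myeloid cells. The limits were set after the distributions of the scores had been seen. Cells that passed several non-epithelial gates, or a non-epithelial and the epithelial gate, were left unassigned. Epithelial cells that passed a goblet, Paneth, tuft or enteroendocrine gate went to the gate most exceeded. This also held for those that passed the enterocyte, adenoma or crypt limits, so these classes can hold mixed cells. No doublet caller was run. The members and the gene lists were chosen with earlier results of these data known. The named genes were the members, the listed genes with an unadjusted p under 0.05 or above 20 CPM in adenoma or enterocyte cells, and the genes most like each member. Some listed genes are not reported here.

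Counts were summed per library and class and fitted with edgeR 4.0.16 (limma 3.58.1, R 4.3.3) with TMM scaling, the quasi-likelihood test, genotype and kit version as a block, and adjustment over all genes. The labels give the same replicate numbers in both groups, and same-numbered libraries share a kit. The deviations of the 2 libraries of a kit correlated at 0.134 in adenoma, 0.542 in crypt, 0.529 in enterocyte, 0.401 in villus-tip and 0.502 in myeloid cells. DESeq2 1.42.0, no filter, no block, other limits on cells, doubled gates, thinned cells and leaving out each library were the alternatives. Ratios between classes used 1 CPM (UMIs per 1000000 UMIs of the class) as pseudocount, and correlations used 10. On simulated counts with 200 genes changed by 2 (log2) and a dispersion of 0.05, the fit recovered 177 in adenoma, 178 in crypt, 177 in enterocyte, 170 in villus-tip and 162 in myeloid cells, with 4, 10, 7, 4 and 6 false calls. The simulation held no kit effect, 1 dispersion for all genes, and changes only in genes with a mean of at least 10 counts. It checks the code and does not give the power of the tests of the members. Depth ranged from 44660305 to 128247396 UMIs per library, and binomial intervals (exact, 95%) cover counting error only. Python 3.11.15, scipy 1.17.1 and matplotlib 3.10.9 were used.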

Additional observations from a re-analysis of the deposited data

Results flagged for a closer look

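The differences of Il18 between genotypes had opposite signs in crypt cells and enterocytes in both kit pairs. Its log2 difference of the VApcMinL from the ApcMin library was 0.45 and 0.14 in crypt cells and -0.09 and -0.24 in enterocytes, for the kit 2 and the kit 3 pair. The means of the pairs were 0.4653 apart. The difference was not tested, and neither change passed the test within its class. In crypt cells these levels, 7.05 to 13.4 CPM, rest on 24, 28, 53 and 81 UMIs and were below those of the free RNA in the 4 libraries, which ran from 17.6 to 54.7 CPM.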

How the results depend on the processing

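None of the 31 member changes passed the test, and of 205 values under other settings 170 kept their direction and side of the threshold, 33 turned direction without a call and 2 were called. The calls were Gsdmc4 in crypt cells with doubled gates (log2 -1.70, adjusted p = 0.0243 by edgeR) and Gsdmc4 in villus-tip cells with no filter (-1.72, adjusted p = 0.0335 by edgeR), while its kit pairs went in opposite directions in the main analysis. The cause was not tested for any of these. Without the replicate block the genes called were 0 in each class, and the log2 changes that turned were Gsdmd in adenoma cells (0.0002472), Gsdmc2 and Gsdmc4 in enterocytes (0.23 and 0.080) and Casp1 in myeloid cells (-0.0095). With DESeq2, 3 genes were called in adenoma cells, 3 in enterocytes and 2 in villus-tip cells, and Gsdmd in adenoma cells (0.001016), Gsdmc2 in crypt cells (0.30), Gsdmc4 in enterocytes (0.20) and Gsdmc2 in villus-tip cells (0.34) turned. With no filter, 17 genes were called in crypt, 62 in enterocyte, 47 in villus-tip and 38 in myeloid cells and 30 in the interaction, and Gsdmd in adenoma cells turned (0.024). With a mitochondrial limit of 10%, 2 genes were called in villus-tip cells, Gsdmd in adenoma cells (0.0202), Gsdmc4 (0.048) and Casp1 (0.0050) in enterocytes and Pycard (1.03), Casp1 (0.73) and Il18 (0.54) in villus-tip cells turned, and the log2 ratio of Pycard in enterocytes over adenoma cells was 3.71 against 3.34. With a floor of 5000 UMIs, 13 genes were called in myeloid cells and Pycard there turned (0.023). With doubled gates, 26 genes were called in crypt, 2 in villus-tip and 2 in myeloid cells, and Pycard (-0.082), Casp1 (0.17) and Nlrp6 (0.21) in crypt cells and Pycard (0.30), Casp1 (0.24) and Il18 (0.31) in villus-tip cells turned. With cells thinned to 2000 UMIs, 6 genes were called in enterocytes. Then Casp1 in adenoma cells (0.51), Pycard (-0.18), Casp1 (0.68) and Nlrp6 (0.21) in crypt cells, Gsdmc4 (0.51), Gsdmd (-0.0067), Pycard (0.20), Casp1 (0.26) and Nlrp6 (0.0093) in enterocytes, Il18 in villus-tip cells (0.14) and Pycard in myeloid cells (0.037) turned.

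Leaving out a library left 1 kit pair for genotypes, a value with no test. The log2 ratio of enterocytes over adenoma cells then ranged from 4.03 to 4.47 for Nlrp6, 3.21 to 3.40 for Pycard and 1.10 to 1.87 for Gsdmc3. With the kit 3 pair only, chosen after seeing the data, 7 members were at least 2-fold lower in adenoma cells than in enterocytes and 5 than in crypt cells. Myeloid and villus-tip values rest on as few as 44 and 123 cells in a library.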

Other observations

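Tuft, goblet and Paneth cells, B and plasma cells and stromal cells lay outside the 5 classes. Casp1 was at 27.5 to 89.9 CPM in tuft cells, 37.4 to 61.0 in goblet cells and 15.3 to 32.5 in Paneth cells, each above adenoma cells at 7.79 to 12.8. Il18 was at 27.0 to 58.1 in tuft cells and 18.1 to 34.2 in goblet cells, and at 0 to 4.82 CPM in fibroblasts. Il13ra1 was at 220 to 360 CPM in tuft cells, which numbered 7 to 25 in a library, and Pou2f3, the factor that defines tuft cells, at 108 to 213. Il25, the tuft cell cytokine that starts type 2 immunity, was at 0, 9.68, 11.6 and 2.30 CPM there. These values were not compared by a test.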
